A study of Mus musculus with 11 samples.

Results

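Apoa1, Apoc3, Apoa4 and Apoa5 are apolipoprotein genes that lie side by side on mouse chromosome 9, in that order in RefSeq (assembly GRCm38.p6), with 0 other annotated genes between them. They were taken as 4 lines of the count table by Ensembl identifier: ENSMUSG00000032080 (Apoa4), ENSMUSG00000032083 (Apoa1), ENSMUSG00000032081 (Apoc3) and ENSMUSG00000032079 (Apoa5), out of 22019 genes, of which 13700 had at least 1 count. The cluster was chosen by the diet change of Apoa4, the largest rise among the genes tested in each footprint class. Its diet values are therefore a description without a test, and the other 3 genes entered by position.

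Apolipoproteins are the protein coat of the particles that carry fat and cholesterol in plasma. ApoA-I is the main protein of high-density lipoprotein. ApoC-III slows the breakdown of triglyceride-rich particles by lipoprotein lipase, ApoA-V promotes it, and ApoA-IV is a secreted protein of chylomicrons and high-density lipoprotein. In mice Apoa4 is strongly expressed in the intestine and is also made in liver, where it is known to rise with fat loading.

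The samples were livers of male wild-type (WT) mice on a control (Chow) diet or on High Fat High Sugar (HFHS), with no further treatment in either group, and the labels give no age, strain or time on diet. Footprints, the mRNA stretches shielded from RNase I, were cut from a gel at 30 nt for single ribosomes (monosomes) and at 60 nt for a pair of stacked ribosomes (disomes). There were 3 chow and 3 HFHS monosome libraries, and 3 chow and 2 HFHS disome libraries. Each library is named here by the sample barcode in its column name. The chow barcodes were ATCGT, then AGCTA, and lastly CGTAA. The HFHS barcodes were CTAGA, then GCATA, and in monosomes also GATCA.

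Monosome libraries held 795145 to 1612324 counts and disome libraries 147212 to 279331. In each class the AGCTA library was the least like the other chow libraries. Over 2265 genes with a mean above 50 CPM (counts scaled to library size), AGCTA correlated with the other chow monosome libraries at r = 0.83 and 0.84, against 0.98 between those. The disome values were 0.79, 0.79 and 0.96. For the cluster, AGCTA gave 0.996 to 1.26 times the mean of the other chow monosome libraries and 1.13 to 1.88 times that of the other chow disome libraries, highest for Apoa4 in each class. The identifiers of the table were not paired with gene names, so liver markers and markers of other cell types were not examined. No mRNA level was analysed here, so more mRNA and more ribosomes per mRNA cannot be told apart, nor can fewer cells of a type and less RNA per cell.

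The sequences before the transcription starts are shown as background on these neighbouring genes. They are from RefSeq on GRCm38.p6, plus strand, and cover the 250 bases before each start. The windows are chr9:46240594-46240843 for Apoa4, chr9:46228380-46228629 for Apoa1 and chr9:46268358-46268607 for Apoa5, whose first of 2 listed starts was used. The build used for the counts is not given in the sources used here. For Apoc3 this RefSeq table gave no window. Capitals mark matches, on either strand, to 4 motifs: CAAAGTNCA (an HNF4-type site), CACGTG (an E-box), TATAAA and TGACGTCA (a cyclic AMP response element).
Apoa4: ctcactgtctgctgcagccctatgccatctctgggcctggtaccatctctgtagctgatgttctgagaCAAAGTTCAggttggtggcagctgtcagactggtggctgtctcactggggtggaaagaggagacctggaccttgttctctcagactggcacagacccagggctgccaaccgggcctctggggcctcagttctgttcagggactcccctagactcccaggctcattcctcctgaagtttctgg
Apoa1: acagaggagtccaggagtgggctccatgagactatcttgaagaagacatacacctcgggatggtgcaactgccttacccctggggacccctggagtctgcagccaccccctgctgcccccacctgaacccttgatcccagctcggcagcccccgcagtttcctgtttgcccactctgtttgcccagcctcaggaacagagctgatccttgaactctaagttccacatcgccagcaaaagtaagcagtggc
Apoa5: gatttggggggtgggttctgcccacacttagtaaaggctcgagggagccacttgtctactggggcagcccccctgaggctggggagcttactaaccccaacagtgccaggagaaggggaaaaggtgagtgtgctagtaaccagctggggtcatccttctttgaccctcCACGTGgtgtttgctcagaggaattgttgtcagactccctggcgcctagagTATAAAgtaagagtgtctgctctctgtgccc

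The Apoa4 window held 1 match, CAAAGTTCA, from 182 to 174 bases before the start. Of 32851 windows of this length in the RefSeq table, 1.19% held CAAAGTNCA. The Apoa5 window held CACGTG from 82 to 77 bases and TATAAA from 31 to 26 bases before the start, motifs found in 6.02% and 12.4% of windows. The Apoa1 window held none of the 4 motifs, and TGACGTCA, found in 1.55% of windows, was in none of these 3. A match is a run of letters and does not show that a factor binds there. Nor does a missing match show that a window lacks a site, since sites can differ in letters. A link between these letters and the diet values was not tested.

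The first question was how far the rise of Apoa4 in monosome footprints was shared by its neighbours. Levels are CPM after TMM scaling within the footprint class. Apoa4 lay at 217 (ATCGT), 268 (AGCTA) and 207 CPM (CGTAA) in chow and at 2682 (CTAGA), 3990 (GATCA) and 1888 CPM (GCATA) in HFHS. The lowest HFHS library was thus far above the highest chow library. Every HFHS library was above every chow library, by any gap, for 11% of the genes tested. The HFHS libraries themselves were widely spread for Apoa4 (SD 1062 CPM, 37.2% of the mean, n = 3). The log2 fold change was 3.63 ± 0.32 (SE), a 12.4-fold difference, ranked 1 of 6754 genes tested.

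Apoa1, the gene of the main high-density lipoprotein protein, lay at 14453 (ATCGT), 15686 (AGCTA) and 17055 CPM (CGTAA) in chow and at 17604 (CTAGA), 16058 (GATCA) and 16369 CPM (GCATA) in HFHS. The diets overlapped. The log2 fold change was 0.08 ± 0.08 (95% interval -0.07 to 0.24, edgeR adjusted p = 0.647), so that the interval ended at a 1.18-fold rise.

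Apoc3, the gene of the lipase inhibitor, lay at 2587 (ATCGT), 2844 (AGCTA) and 2444 CPM (CGTAA) in chow. In HFHS it lay at 3744 (CTAGA) and 3811 CPM (GATCA), but at 2621 CPM in GCATA. That library fell inside the chow range, and the other HFHS libraries were above it. The log2 fold change was 0.37 ± 0.12 (95% interval 0.12 to 0.62) and did not pass the threshold (edgeR adjusted p = 0.0878). Without GCATA it was 0.53 (adjusted p = 0.0017), and with no filter on low counts it was 0.38 (adjusted p = 0.00822). Under the other 11 alternatives it also lay above 0, and its adjusted p over all 13 ran from 0.0017 to 0.321.

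Apoa5, the gene of the lipase-promoting apolipoprotein, lay at 2166 (ATCGT), 2492 (AGCTA) and 2319 CPM (CGTAA) in chow and at 2578 (CTAGA), 3077 (GATCA) and 2732 CPM (GCATA) in HFHS. Every HFHS library was above every chow library, by a narrow gap, as was so for 11% of the genes tested. The log2 fold change was 0.27 ± 0.10 (95% interval 0.05 to 0.48) and missed the threshold (edgeR adjusted p = 0.169).

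In monosomes, then, 0 of the 3 neighbours passed the test at adjusted p below 0.05, where 4.65% of the 6754 genes tested did (3.02% upward). At an unadjusted edgeR p below 0.05, a level met by 16.9% of genes tested, stood 2 of the 3, Apoc3 at 0.00564 and Apoa5 at 0.0167. DESeq2 called 0 of the 3. Of the 6754 genes it fitted it called 217, which is 10% of the 2163 to which it gave an adjusted p. The share of genes tested with a lower log2 fold change was 62.6% for Apoa1, 86.9% for Apoc3 and 80.1% for Apoa5, and the median over all genes tested was -0.02. The upper ends of the neighbours' intervals, 1.18-fold for Apoa1, 1.54-fold for Apoc3 and 1.39-fold for Apoa5, were all far below the 12.4-fold of Apoa4.

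**Figure D1:**
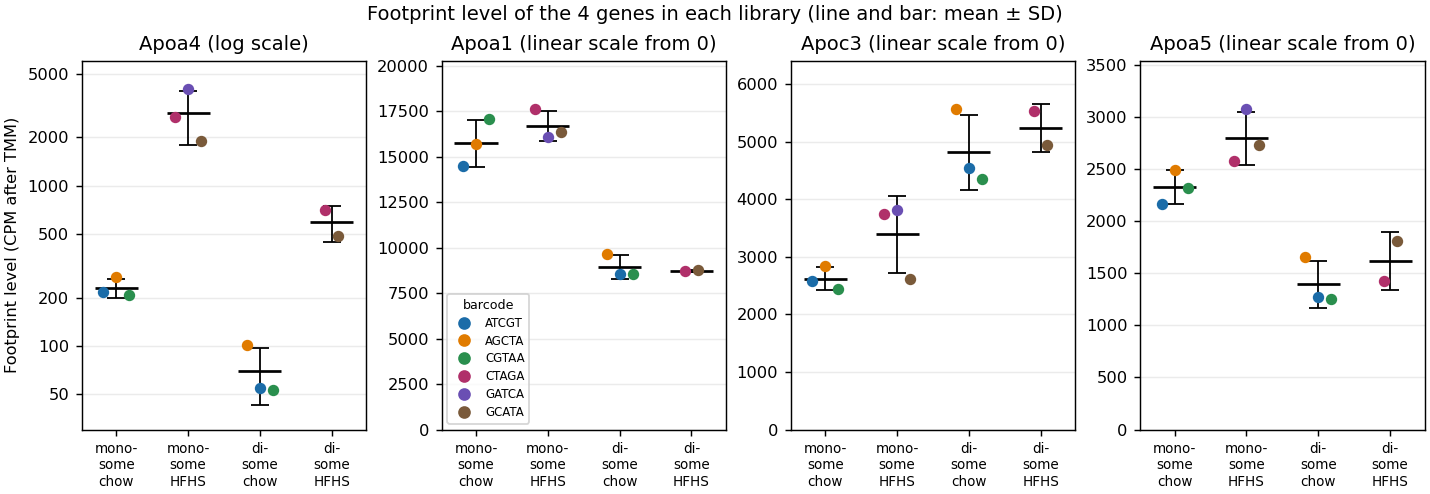
Footprint level in CPM after TMM scaling within each footprint class, for each library (points coloured by barcode), with the mean and SD of each group as line and bar; Apoa4 is on a log scale and the other genes on linear scales that start at 0. In monosomes Apoa4 lies at 207 to 268 CPM in chow and at 1888 to 3990 CPM in HFHS, and its HFHS disome libraries are also above the chow ones. Scaling was within each class, so levels are not to be compared between classes here.

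The same question was asked of disomes. Apoa4 had 13 (AGCTA), 12 (ATCGT) and 14 counts (CGTAA) in the chow disome libraries, or 102, 54.7 and 53.3 CPM. In HFHS it had 152 (CTAGA) and 105 counts (GCATA), or 706 and 487 CPM. Both HFHS libraries were above all chow libraries, as was so for 14.3% of the genes tested. A chow count of 12 has an exact Poisson 95% interval of 6.20 to 21.0, which covers counting error only. The log2 fold change was 3.19 ± 0.24, a 9.15-fold difference, ranked 1 of 2804 genes tested. Without the chow library AGCTA it was 3.44.

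Apoa1 lay at 9669 (AGCTA), 8521 (ATCGT) and 8549 CPM (CGTAA) in chow disomes and at 8686 (CTAGA) and 8740 CPM (GCATA) in HFHS disomes. Here the HFHS values fell inside the chow range, and the log2 fold change was -0.03 ± 0.16 (95% interval -0.34 to 0.28, edgeR adjusted p = 0.973). Apoc3 lay at 5569 (AGCTA), 4541 (ATCGT) and 4347 CPM (CGTAA) in chow and at 5538 (CTAGA) and 4945 CPM (GCATA) in HFHS. Its HFHS values also fell inside the chow range (log2 fold change 0.12 ± 0.16, 95% interval -0.19 to 0.44, edgeR adjusted p = 0.825). Apoa5 lay at 1656 (AGCTA), 1277 (ATCGT) and 1257 CPM (CGTAA) in chow and at 1425 (CTAGA) and 1814 CPM (GCATA) in HFHS. These values overlapped as well (log2 fold change 0.22 ± 0.17, 95% interval -0.12 to 0.56, edgeR adjusted p = 0.644).

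In disomes 0 of the 3 neighbours passed, where 2.96% of the 2804 genes tested did. At an unadjusted edgeR p below 0.05 there were 0 of the 3 and 13.4% of all genes tested. DESeq2 called 0 of the 3. Of the 2804 genes it fitted it called 26, which is 1.52% of the 1716 to which it gave an adjusted p. For the neighbours the intervals allow a rise of up to 1.21-fold for Apoa1, 1.36-fold for Apoc3 and 1.48-fold for Apoa5. The chow library AGCTA was the highest chow library for all 4 genes in disomes. Without it the log2 fold change was 0.02 for Apoa1, 0.23 for Apoc3 and 0.35 for Apoa5, with edgeR adjusted p of 0.98, 0.675 and 0.456.

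**Figure D2:**
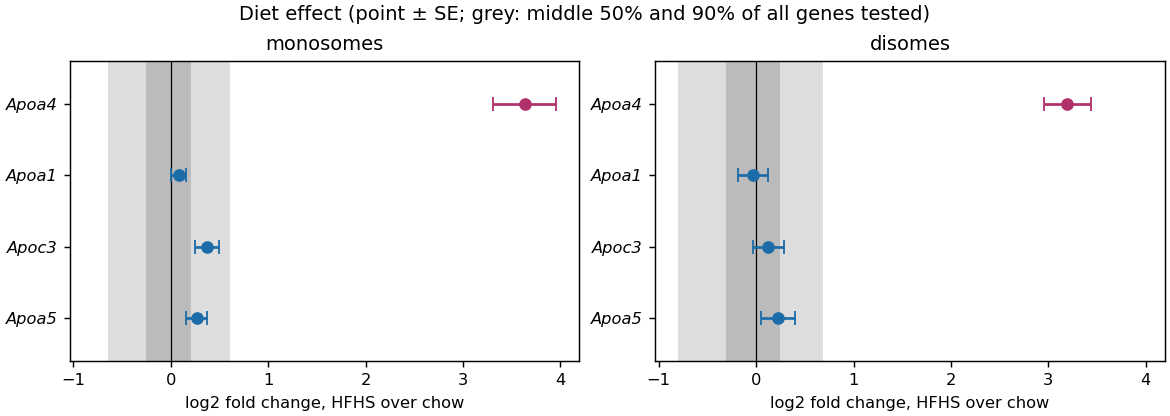
Log2 fold change of HFHS over chow for each gene in monosomes (left) and disomes (right), as point and SE, over the middle 50% (dark grey) and 90% (light grey) of all genes tested. Apoa4 lies at 3.63 in monosomes and 3.19 in disomes, and its neighbours lie between -0.03 and 0.37.

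The ratio of raw counts of a pair of genes within a library does not depend on library scaling. Per 100 Apoa1 counts, chow monosomes held 1.50 (ATCGT), 1.71 (AGCTA) and 1.21 Apoa4 counts (CGTAA). In HFHS monosomes there were 15.2 (CTAGA), 24.9 (GATCA) and 11.5 (GCATA). In disomes the ratio was 1.05 (AGCTA), 0.642 (ATCGT) and 0.624 (CGTAA) in chow, and 8.12 (CTAGA) and 5.57 (GCATA) in HFHS. HFHS libraries lay above chow libraries in both classes, by 11.2-fold in monosomes and 8.98-fold in disomes on the geometric mean. Against Apoc3 the corresponding changes were 9.32-fold and 8.05-fold, and against Apoa5 they were 9.91-fold and 7.58-fold. Apoa4 was chosen for its diet change, so the separation of its ratios by diet follows from that choice and is a description. The share of all gene pairs separated by diet was not computed. Ratios among the 3 neighbours overlapped between the diets in both classes. Their changes ran from 0.832-fold to 1.06-fold.

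Apoa4 thus took a larger part of the cluster's footprints on HFHS. It held 0.939% to 1.26% of the cluster's monosome counts in chow libraries and 8.00% to 14.8% in HFHS libraries. In disomes it held 0.375% to 0.597% and 3.05% to 4.31%. These shares are of counts, not per length, so they show a change of Apoa4 with diet and not which gene is translated most. The whole cluster took 2.08% ± 0.18 of chow monosome counts and 2.49% ± 0.18 of HFHS monosome counts (SD, n = 3 each). Without Apoa4 the corresponding shares were 2.06% ± 0.18 and 2.22% ± 0.11.

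**Figure D3:**
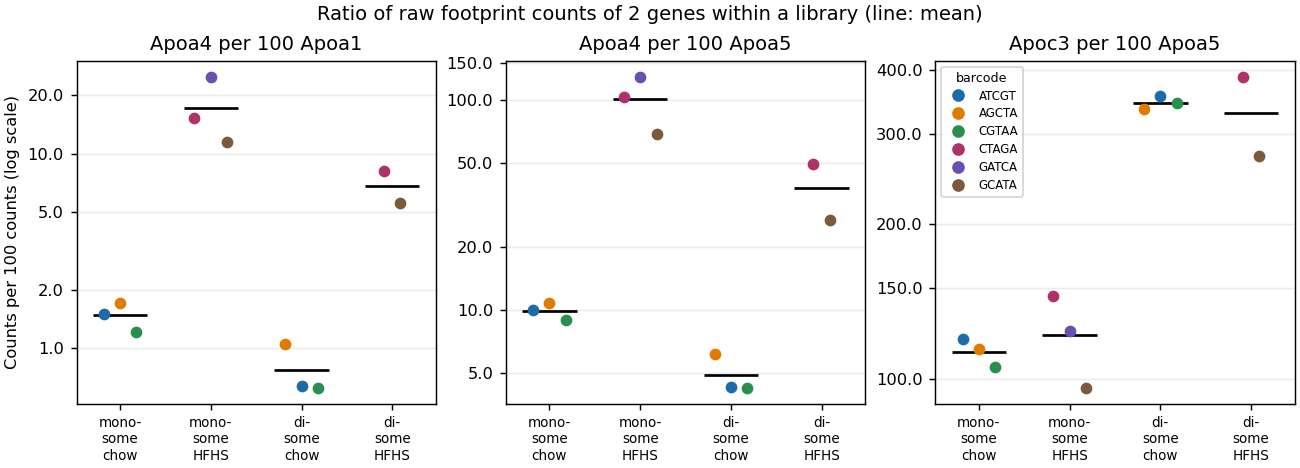
Raw counts of one gene per 100 counts of another within each library, on a log scale, with points coloured by barcode and a line at the group mean. Apoa4 per 100 Apoa1 and per 100 Apoa5 is higher on HFHS in both classes, and Apoc3 per 100 Apoa5 is higher in disomes, at 273 to 389, than in monosomes, at 95.9 to 145.

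Whether the diet moved disomes differently from monosomes was tested in 1 model over all 11 libraries. The difference of log2 diet effects, disomes minus monosomes, was -0.38 ± 0.51 for Apoa4 (95% interval -1.55 to 0.78), -0.02 ± 0.13 for Apoa1, -0.16 ± 0.18 for Apoc3 and 0.04 ± 0.19 for Apoa5. None of the 4 passed (edgeR adjusted p = 1 to the third decimal for each; unadjusted p 0.374 to 0.851), and 0% of 7236 genes tested did, with 4.95% at an unadjusted p below 0.05. DESeq2 called 0 of the 4 and 0% of the 7210 genes to which it gave an adjusted p. The Apoa4 difference is made from the diet effects by which the cluster was chosen. Its p-value is therefore only a description, and the test stands for the neighbours alone. The interval for Apoa4 runs from a disome rise 0.342 times that of monosomes to one 1.71 times as large. A difference within that range is therefore not excluded. GATCA, the highest Apoa4 monosome library, has no disome library analysed here. With only the 5 barcodes found in both classes and the barcode as a block, the difference for Apoa4 was -0.09 ± 0.29. Without the GATCA monosome library it was -0.10 ± 0.31, and without the chow disome library AGCTA it was -0.10 ± 0.49. Leaving out the GCATA monosome library moved it the other way, to -0.65 ± 0.33. Over all 19 alternatives the Apoa4 difference ran from -0.67 to -0.09, so its size was not settled by leaving out GATCA.

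Disome levels relative to monosome levels were then compared, a ratio that was not itself used to choose the cluster. For Apoa4 it is made from the same levels as the diet changes that were used. The p-values of Apoa4 are therefore not independent of that choice. Normalization removes any difference common to all genes, so a ratio of 1 is that of the average gene. Apoc3 carried more disomes than its monosome level, and Apoa4, Apoa1 and Apoa5 carried fewer, on both diets. For barcodes found in both classes the disome-to-monosome ratio of Apoc3, in CPM scaled over all 11 libraries, was 1.54 (AGCTA), 1.48 (ATCGT) and 1.42 (CGTAA) in chow and 1.27 (CTAGA) and 1.64 (GCATA) in HFHS. All 5 values were above 1, and the share of all genes for which that held was not computed. In the fit of each diet every disome library of Apoc3 was above every monosome library. That was so for 25.9% of genes tested in chow and 26.7% in HFHS.

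The ratio of Apoa1 was 0.483 (AGCTA), 0.498 (ATCGT), 0.399 (CGTAA), 0.424 (CTAGA) and 0.464 (GCATA). The ratio of Apoa5 was close to it, at 0.521 (AGCTA), 0.498 (ATCGT), 0.431 (CGTAA), 0.475 (CTAGA) and 0.577 (GCATA). That of Apoa4 was the lowest, at 0.297 (AGCTA), 0.213 (ATCGT), 0.205 (CGTAA), 0.226 (CTAGA) and 0.224 (GCATA). The HFHS values of Apoa4 lay inside its chow range. In every barcode the order was Apoc3 first and Apoa4 last.

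In the chow fit the log2 ratio was 0.64 ± 0.12 for Apoc3 (edgeR adjusted p = 4.04e-05), -1.05 ± 0.10 for Apoa1 (adjusted p = 1.65e-10), -0.97 ± 0.13 for Apoa5 (adjusted p = 1.53e-07) and -2.05 ± 0.24 for Apoa4 (adjusted p = 3.47e-09). All 4 passed, where 44.9% of the 4713 genes tested did, 21.6% with more and 23.3% with fewer disomes. Passing is therefore common. Apoa4 stood near the low end, with 3.42% of genes tested below it, against 16.2% for Apoa1, 17.95% for Apoa5 and 77.1% for Apoc3. Without the AGCTA disome library the values were 0.51, -1.14, -1.13 and -2.34 in the order given, all still past the threshold.

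In the HFHS fit the log2 ratio was 0.42 ± 0.14 for Apoc3 (edgeR adjusted p = 0.0289), -1.15 ± 0.11 for Apoa1 (adjusted p = 6.28e-09), -0.998 ± 0.14 for Apoa5 (adjusted p = 2.93e-06) and -2.47 ± 0.44 for Apoa4 (adjusted p = 0.0224). All 4 passed again, where 25.1% of 7437 genes tested did, 11.5% with more and 13.6% with fewer disomes. The share of genes tested with a lower ratio was 69.4% for Apoc3, 16.5% for Apoa1, 19.8% for Apoa5 and 3.09% for Apoa4. The call for Apoc3 was not firm: it missed the threshold with DESeq2 (adjusted p = 0.135), with no filter (0.144), without robust estimation (0.0552), and without the monosome library GCATA (0.0932) or the disome library CTAGA (0.294) or GCATA (0.118). It passed under the other 6 of 12 alternatives: with the barcode as a block (0.53 ± 0.09, adjusted p = 1.47e-07), upper-quartile scaling (0.0117), RLE scaling (0.0289), a minimum count of 50 (0.0406), and without the monosome library CTAGA (0.0306) or GATCA (0.0231). Apoa4 missed it when either of the 2 HFHS disome libraries was left out (adjusted p = 0.159 without CTAGA and 0.179 without GCATA), with a log2 ratio of -2.77 and -2.26.

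**Figure D4:**
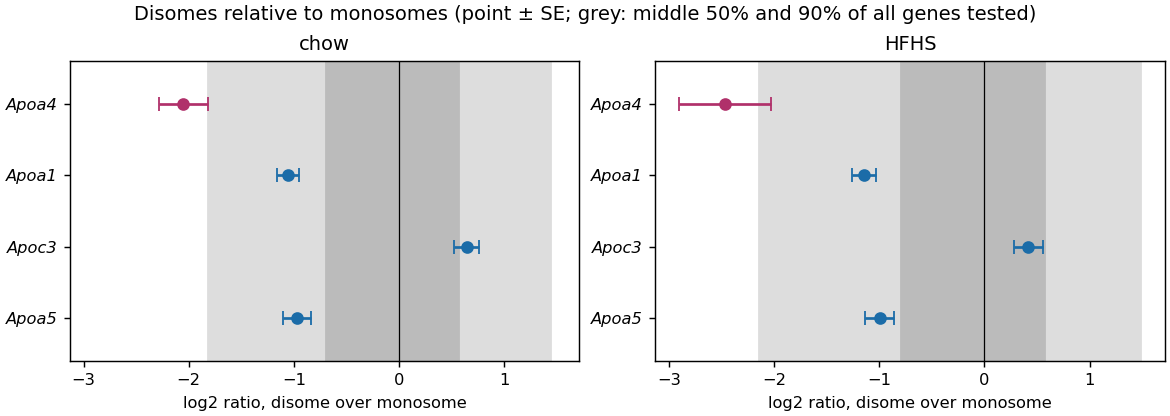
Log2 ratio of disome over monosome footprints for each gene in chow (left) and HFHS (right), as point and SE, over the middle 50% (dark grey) and 90% (light grey) of all genes tested. Apoc3 lies above 0, at 0.64 and 0.42, and Apoa4 is the lowest of the cluster, at -2.05 and -2.47.

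The order of the 4 genes was also tested without any scaling between libraries, on the ratio of raw counts of 2 genes within a library. The footprint class was permuted within each diet, with 200 arrangements, so that 0.005 was the smallest exact p possible, and p was adjusted over the 6 pairs. This test was chosen after the values had been seen. In chow the Apoc3 counts per 100 Apoa5 counts were, for monosomes, 119 (ATCGT), 114 (AGCTA) and 105 (CGTAA), against 346 ± 9.70 for disomes (SD, n = 3). In HFHS they were 145 (CTAGA), 124 (GATCA) and 95.9 (GCATA) in monosomes and 389 (CTAGA) and 273 (GCATA) in disomes. The classes did not overlap on either diet, and the ratio was 2.88-fold higher in disomes (exact permutation p = 0.005, adjusted 0.006, two-sided).

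Of the 6 pairs, 5 differed between the classes at the smallest exact permutation p of 0.005 (adjusted 0.006). At that p the classes cannot overlap on either diet, so the lack of overlap adds no further evidence. The same exact p, unadjusted, was reached by 46.7% of the 1296855 pairs among the 1611 genes with at least 10 counts in every library. The 6 pairs also share their genes, so nothing particular to the cluster is read from this count. In disomes the ratio of Apoa1 to Apoc3 was 0.322 times its monosome value, that of Apoa4 to Apoc3 was 0.148 times, that of Apoa4 to Apoa1 was 0.46 times and that of Apoa4 to Apoa5 was 0.427 times. Apoa1 and Apoa5 could not be told apart: their ratio in disomes was 0.928 times that in monosomes, the classes overlapped, and the exact permutation p was 0.315. Monosome and disome columns carry different prefixes, so a difference between library sets cannot be told apart from one between footprint classes. Labels do not say that samples sharing a barcode came from the same animal, nor that replicates came from separate animals. The p-values therefore cover only the variation from library to library, which may be technical.

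Libraries of the same barcode ranked alike in both classes for some of the genes and not for others. Between the HFHS barcodes CTAGA and GCATA, Apoa4 was higher in CTAGA in monosomes (2682 against 1888 CPM) and in disomes (706 against 487 CPM). Apoc3 was also higher in CTAGA in both, and Apoa5 was higher in GCATA in both (2732 against 2578 CPM and 1814 against 1425 CPM). Apoa1 did not keep its order, at 17604 against 16369 CPM in monosomes and 8686 against 8740 CPM in disomes. Among the chow barcodes Apoa4 and Apoc3 kept their order between the classes, and Apoa1 and Apoa5 did not. With so few barcodes a kept order can easily arise by chance. The share of all genes that kept their order was not computed, so nothing particular to the cluster is read from this.

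Likeness of pattern was taken as Pearson r of log2(CPM + 1), centred on the mean of each class, over the 11 libraries, among genes with at least 10 CPM on average in each class. It is a description, since the libraries share their diet groups and scaling. With Apoa4, Apoc3 had r = 0.73, Apoa5 0.72 and Apoa1 0.28, at ranks 261, 283 and 1393 of 5516 genes. Taken from the neighbours, Apoa4 stood at rank 59 for Apoc3, 138 for Apoa5 and 1076 for Apoa1. The highest were ENSMUSG00000027984 and ENSMUSG00000027559, at r = 0.98 each, and their log2 fold changes in monosomes were 0.65 and 0.71. Those sizes were far below that of Apoa4. A high r does not mean a like size, since r measures the shape of a pattern only. The highest r with any gene was 0.86 for Apoa1, 0.91 for Apoc3 and 0.95 for Apoa5.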

How the data were processed

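The authors deposited raw counts of footprints per coding sequence, as whole numbers that were not normalized, with 1 transcript per gene. The tools in the submitters' processing notes are cutadapt 3.5 and Bowtie2. Not given in the sources used here are the genome build, annotation, strand setting, use of molecular identifiers and treatment of shared reads. Column names gave class, diet and barcode, but no replicate number, so columns were placed in groups only.

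Tests used edgeR 4.0.16 in R 4.3.3 on the whole table (filterByExpr with a minimum count of 10, TMM, robust quasi-likelihood F-test, two-sided, Benjamini-Hochberg over all genes tested, threshold 0.05), after checks on simulated data. The simulated counts had the same dispersion for every gene and no outlying library, so those checks do not cover such features of the data. SE is the log2 fold change divided by the square root of F. DESeq2 1.42.0, other scaling, filters, pooling, the barcode as a block and leaving out each library were alternatives. The cluster, lists and tests were chosen with earlier results of these data known. Of 49997 RefSeq genes, 0 matched the table's identifiers by Ensembl identifier. The 8 gene lists, the cell type markers, flanking genes and levels per coding length were therefore not analysed here. The 4 cluster genes are named always; genes of like pattern were to be the 5 highest r for Apoa4 and 3 for each other gene, of which, being unnamed, 2 are printed.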

Additional observations from a re-analysis of the deposited data

How the results depend on the processing

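For the cluster genes, 375 values were recomputed under alternatives: 363 kept their direction and side of the threshold (or, untested, moved by under 1 SD, or stayed uncalled), 8 lost and 2 gained the threshold, 2 moved further and 0 called values reversed. In monosomes Apoc3 passed with no filter (0.38), and its range without single libraries was 0.28 to 0.53. In HFHS the disome-to-monosome log2 ratio of Apoc3 missed the threshold with DESeq2 (0.42), with no filter (0.27) and without robust estimation (0.42), and ran from 0.29 to 0.52 without single libraries; that of Apoa4 ran from -2.77 to -2.14. The log2 diet change of the Apoa4 to Apoa5 ratio in disomes, 2.92, ran from 2.48 without CTAGA to 3.36 without GCATA. With 1 library left in a group, its spread is assumed to be that of the other group.

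The number of genes called over the whole table, against which the cluster was read, ran from 142 to 410 around 314 for the diet in monosomes, from 26 to 83 around 83 in disomes, from 898 to 2421 around 2114 for the classes in chow, from 980 to 2080 around 1864 in HFHS and from 0 to 7 around 0 for the difference of diet effects. With no filter the median log2 ratio of disomes to monosomes shifted by -0.17 in chow and -0.14 in HFHS. No paired analysis was possible because the columns carry no replicate number. Blocking instead on the barcode, which labels do not tie to an animal, changed no call of the 4 genes between classes or in the difference of diet effects. Apoa4 had 12 to 14 counts in each chow disome library.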
